A study of Mus musculus with 6 samples.

Results

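The 46 genes described here encode the machinery that carries procollagen into the endoplasmic reticulum (ER), processes it and exports it toward the Golgi. They were picked by symbol for their place in the pathway, out of the 28987 genes of the deposited table, and all 46 had a row. They fall into 7 roles: 10 genes of the translocon, 8 of the signal peptidase and oligosaccharyltransferase, 11 of the COPII coat, 5 of procollagen export, 4 cargo receptors, 5 of the COPI coat and 3 KDEL receptors.

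EGFP+ ventricular cells were purified by flow sorting and profiled by RNA-seq in 6 libraries. The labels put 3 libraries in a control group and 3 in a group lacking Hsp47, the collagen-specific ER chaperone encoded by *Serpinh1*. All mice carried a *Postn*-MerCreMer knock-in and the Cre-dependent *R26-eGFP* reporter, and only the Hsp47-deleted mice carried *Hsp47* flox/flox. All received tamoxifen (100 mg/kg by intraperitoneal injection, then 40 mg/kg in chow) and transverse aortic constriction (TAC), which overloads the left ventricle with pressure, at 8 to 10 weeks of age, and cells were taken 4 weeks after TAC. The doses are those of the labels, and the paper's methods give different ones. No sham-operated mice were included. Because Cre is driven from the *Postn* locus, the reporter marks cells in which periostin was expressed under tamoxifen, chiefly activated fibroblasts (myofibroblasts), and the control cells also carry Cre. In bulk RNA of this kind, fewer cells of a type and less RNA per cell cannot be told apart.

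Secreted proteins enter the ER through the Sec61 channel, where a signal peptidase removes their leader sequence and an oligosaccharyltransferase attaches glycans. COPII coats built by Sar1, Sec23-Sec24 and Sec13-Sec31 then bud cargo from ER exit sites, while COPI coats and KDEL receptors return escaped ER residents from the Golgi. Procollagen is a rigid rod too long for an ordinary COPII vesicle, and its export depends on TANGO1 (encoded by *Mia3*) and its partner cTAGE5, which hold the coat open at the exit site. Activated fibroblasts, the main collagen-secreting cells of the injured heart, rely on this pathway.

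The promoters of some members hold a sequence known from the unfolded protein response, the transcriptional response that raises secretory genes when proteins misfold in the ER. In the RefSeq promoter table of build GRCm38.p6, which covers 250 bases before to 50 bases after each annotated start, 38 of the 46 members were found, with 43 promoters. The unfolded protein response element, searched as TGACGTG on both strands, was present in 6 of these 43 promoters (14.0%), against 2.01% of all 32851 promoters in the table. Its first 5 letters are also the core of the cAMP response element. The members with a match were *Mia3*, *Sec23a*, *Sec24d*, *Copb1*, *Copb2* and *Kdelr3*. The ER stress response element (CCAAT, any 9 bases, CCACG) and the ER stress response element II (ATTGG, any base, CCACG) matched no member's promoter, and were found in 0.119% and 0.0365% of all promoters. A match is a match of letters and not evidence of binding. The promoters of the procollagen receptor, of the COPII inner coat subunits *Sec23a* and *Sec24d*, and of the KDEL receptor are printed here. Their proteins act in packaging procollagen or in retrieval to the ER. The COPI subunits of *Copb1* and *Copb2* also act in retrieval, and the element in their promoters is given by position only. The printed promoters run in the direction of transcription, with the element in capitals, as TGACGTG or its reverse complement.
Mia3 promoter, chr1:183369516-183369815, minus strand: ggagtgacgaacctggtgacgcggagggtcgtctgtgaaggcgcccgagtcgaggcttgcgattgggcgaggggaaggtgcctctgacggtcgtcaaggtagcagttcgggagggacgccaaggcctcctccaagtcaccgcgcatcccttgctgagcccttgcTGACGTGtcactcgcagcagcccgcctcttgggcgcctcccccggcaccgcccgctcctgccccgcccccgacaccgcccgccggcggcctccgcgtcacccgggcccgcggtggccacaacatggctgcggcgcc
Sec23a promoter, chr12:59011968-59012267, minus strand: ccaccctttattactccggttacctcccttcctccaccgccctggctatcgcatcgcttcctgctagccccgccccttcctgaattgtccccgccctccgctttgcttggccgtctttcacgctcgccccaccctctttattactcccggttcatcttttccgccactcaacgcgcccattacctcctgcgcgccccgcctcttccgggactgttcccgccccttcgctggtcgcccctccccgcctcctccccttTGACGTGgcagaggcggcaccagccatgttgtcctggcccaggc
Sec24d promoter, chr3:123267246-123267545, plus strand: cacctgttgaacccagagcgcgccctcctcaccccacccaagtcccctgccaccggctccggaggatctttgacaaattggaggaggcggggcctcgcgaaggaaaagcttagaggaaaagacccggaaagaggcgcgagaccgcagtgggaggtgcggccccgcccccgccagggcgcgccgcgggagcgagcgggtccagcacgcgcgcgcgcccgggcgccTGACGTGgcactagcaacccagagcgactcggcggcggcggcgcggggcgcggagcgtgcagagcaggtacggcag
Kdelr3 promoter, chr15:79516158-79516457, plus strand: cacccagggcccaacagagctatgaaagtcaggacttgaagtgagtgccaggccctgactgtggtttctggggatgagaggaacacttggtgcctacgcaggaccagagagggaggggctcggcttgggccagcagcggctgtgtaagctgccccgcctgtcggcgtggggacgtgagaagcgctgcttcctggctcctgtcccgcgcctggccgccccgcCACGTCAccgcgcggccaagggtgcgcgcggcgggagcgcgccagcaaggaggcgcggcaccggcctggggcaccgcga

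The element began 86 bases before the start site in *Mia3*, 26 before it in *Sec24d* and 29 before it in *Kdelr3*, and lay 6 bases after it in *Sec23a*. The remaining genes are subunits of the COPI coat, in which the element began 27 bases (*Copb1*) and 6 bases (*Copb2*) before the start.

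The labels place the libraries in 2 sequencing runs that do not match the groups. Control replicates 3 and 4 were sequenced in the first run and control replicate 2, a control by its genotype label, in the second with all 3 Hsp47-deleted libraries. Across the 15109 genes tested, control 2 correlated more closely with Hsp47-deleted 1 (Pearson's r = 0.94) than with controls 3 and 4 (r = 0.83 and 0.76), and controls 3 and 4 correlated at 0.93. Mitochondrially encoded genes held 23.5% to 29.4% of the summed linear values in the controls and 4.70% to 7.23% in the Hsp47-deleted libraries, and the median gene was 0.35 higher on the log2 scale in the Hsp47-deleted group. *Serpinh1* itself was 7.60, 6.28 and 6.10 in controls 2, 3 and 4 and 6.87, 6.67 and 6.66 in Hsp47-deleted 1, 2 and 3 (log2 fold change 0.07 ± 0.43 SE, adjusted p = 0.947, limma). A value for the whole gene does not show whether the loxP-flanked part is missing, so it does not check the labels, and the libraries are called by them. Fibroblast markers summed to 7255 to 10090 linear units in the controls and 11702 to 13337 in the Hsp47-deleted libraries, with all 8 detected throughout. Most of each sum was *Dcn*, at 5090 to 7401 and 7755 to 8636. *Postn*, whose locus drives Cre, was at 56.9 to 68.5 and 1188 to 1451 (log2 fold change 4.41 ± 0.28 SE, adjusted p = 0.00337, limma). *Lum* had a negative fold change (-0.11) and the other markers positive ones. All 8 cardiomyocyte, all 8 endothelial, all 6 mural and 4 of 7 leukocyte markers were also above 0 in every library. Summed cardiomyocyte markers were 46.5 to 259 in the controls and 161 to 248 in the deleted libraries, endothelial markers 103 to 623 and 273 to 584, leukocyte markers 37.4 to 87.0 and 95.2 to 121 (with *Ptprc*, the pan-leukocyte marker, listed at 0 in every library), and mural cell markers 163 to 288 and 111 to 169. The part of these cells, of the mitochondrial share and of the run in the values below was not tested.

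To see whether Hsp47 deletion altered the export machinery, the members were compared between the groups with limma across all genes tested. No member passed an adjusted p of 0.05, against 0.245% of all genes (37 of 15109). Of the 46 members, 45 were expressed above the filter (a mean of at least 1 linear unit), and 41 of them had a positive log2 fold change, 4 a negative one. Positive values were also the rule among all genes (74.5%). The fold changes ran from -0.41 (*Ssr3*) to 1.76 (*Sec61b*) on the log2 scale, around a median of 0.49 where the median of all genes was 0.35, and the adjusted p from 0.286 to 0.989.

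At an unadjusted p under 0.05, 11 members (24.4%) were higher in the Hsp47-deleted libraries and 0 were lower, against 14.5% and 0.755% of all genes. They came from 6 of the 7 roles: *Ssr2*, *Sec61a1*, *Sec61b* and *Sec61g* of the translocon, *Spcs1* and *Ddost*, *Sec13* and *Sec31a* of the COPII coat, *Trappc3*, *Tmed2* and *Copg1*. In 15 members (33.3%) every Hsp47-deleted library lay above every control, against 18.3% of all genes, and in 0 members every one lay below, against 1.5%. An exact permutation test of a single member with 3 libraries against 3 cannot give a two-sided p under 0.10, which these 15 members reached. With each library centred on its median gene, the median member was 0.07 (all genes -0.06), 0 members passed an unadjusted p of 0.05 (all genes 8.21%), and 25 members were positive and 20 negative. After quantile normalization 1 member passed that unadjusted threshold (all genes 8.37%), and after rescaling each library to the sum of its nuclear named genes 0 did (all genes 7.86%).

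**Figure D1:**
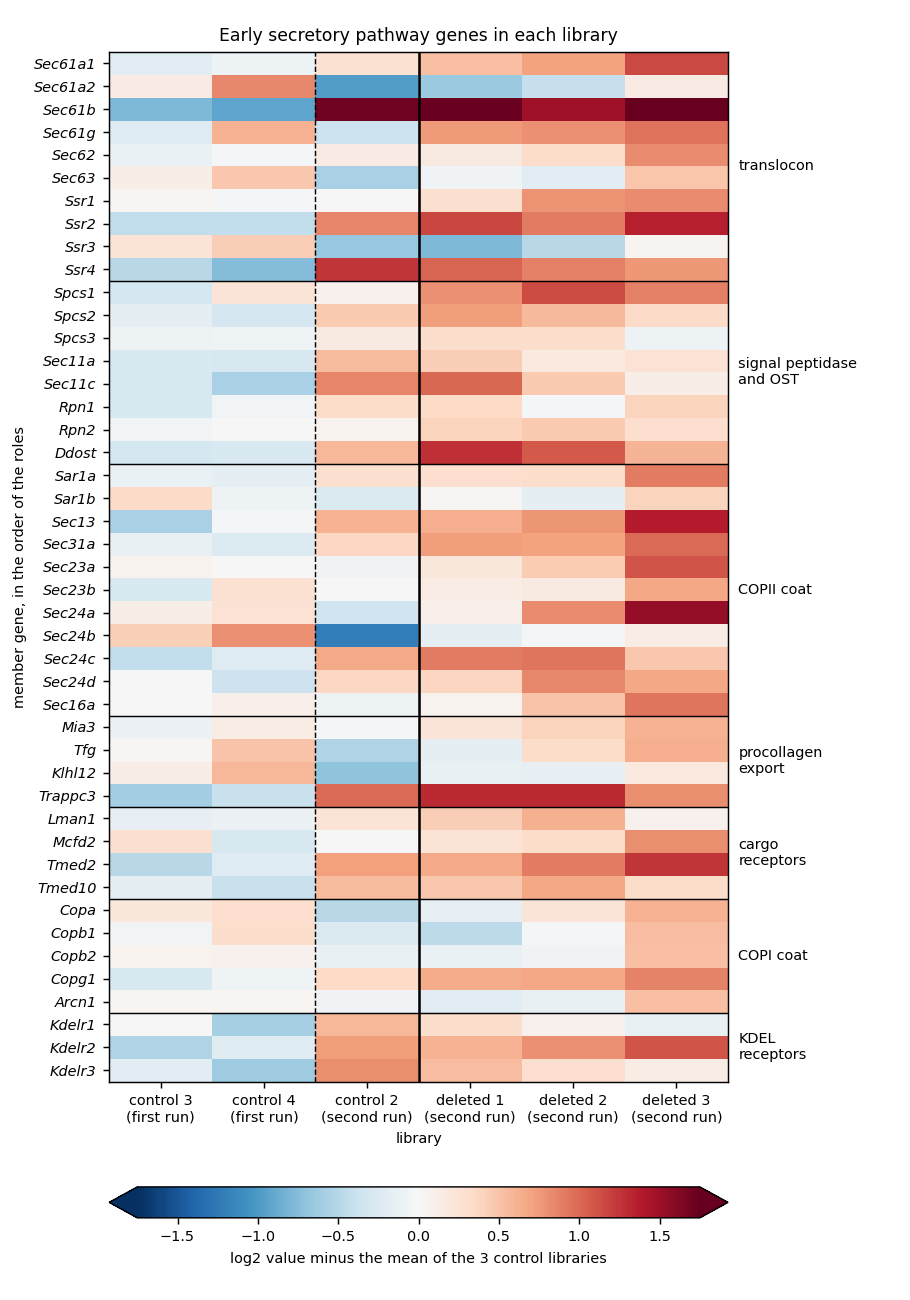
Log2 value of the 45 tested members in each library minus the mean of the 3 controls of the same gene. Rows are genes in the order of the roles and columns are libraries, with the dashed line between the runs and the solid line between the groups (OST, oligosaccharyltransferase; colours saturate at the ends of the scale). Control 2 lies apart from controls 3 and 4, above both in 25 members and below both in 15, and deleted 3 is the deepest red in most COPII coat rows.

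Because only 1 control shared a run with the Hsp47-deleted libraries, the members were also compared within that run, where a difference has no replicate check. All 3 Hsp47-deleted libraries lay above control 2 in 27 of 45 members (60.0%; all genes 46.7%) and below it in 4 (all genes 11.7%). The mean of the Hsp47-deleted libraries was higher than control 2 in 38 members and lower in 7, with a median of 0.29, the same to 2 decimals as the median of all genes. Positive differences were the rule among all genes here too, with 10850 of the 15109 tested higher and 4234 lower. By role, all 11 COPII coat members were positive (0.10 to 1.20), as were all 4 tested procollagen export members (0.16 to 0.78). All 5 COPI coat members were positive too (0.14 to 0.72). The 7 negative members were *Kdelr1* and *Kdelr3*, 3 of the signal peptidase and oligosaccharyltransferase, 1 of the translocon and 1 cargo receptor.

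**Figure D2:**
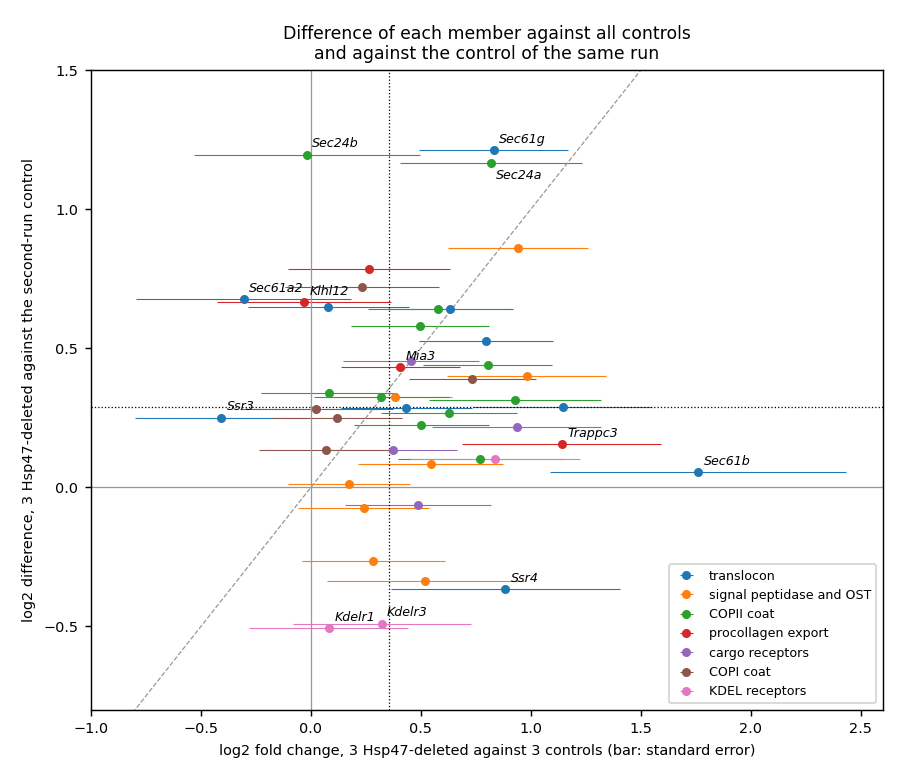
Each point is a tested member, coloured by role. The x axis is the log2 fold change against all 3 controls with its standard error, the y axis the log2 difference against the second-run control alone, dotted lines are the medians of all genes and the dashed line is equality. *Sec61b* lies at 1.76 and 0.06 and *Sec24b* at -0.02 and 1.20, while *Mia3* lies near equality.

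The procollagen export group held the members most closely tied to collagen. *Mia3* encodes TANGO1, the ER exit site receptor that binds procollagen through its partner Hsp47. Its log2 value was 5.39, 5.32 and 5.54 in controls 2, 3 and 4 and 5.64, 5.80 and 6.02 in Hsp47-deleted 1, 2 and 3. Every Hsp47-deleted library lay above every control, and the 3 controls lay close together whatever their run. The log2 fold change was 0.41 ± 0.27 (SE; adjusted p = 0.472, limma; exact permutation p = 0.1), close to the 0.35 of the median gene, and 0.43 against control 2 alone. With the libraries centred on their medians it was -0.01.

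*Ctage5* encodes cTAGE5, the binding partner of TANGO1 at the exit site. It was at 0.33, 0.00 and 0.78 in controls 2, 3 and 4 and at 1.28, 0.00 and 0.62 in Hsp47-deleted 1, 2 and 3, below the filter, and was not tested. The groups overlapped, and 1 library of each group lay at 0.00 to 2 decimals. GENCODE release M21 gives this gene the name *Mia2*, and a separate row of the table named *Mia2* was also low, between 0.00 and 0.61.

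*Trappc3* encodes a subunit of the TRAPP complex, which tethers ER-derived vesicles and acts in procollagen export. Its values were 5.33, 3.76 and 3.95 in controls 2, 3 and 4 and 5.65, 5.65 and 5.16 in Hsp47-deleted 1, 2 and 3. Controls 3 and 4 lay far below the rest, and control 2 lay within the range of the Hsp47-deleted libraries. The fold change was 1.14 ± 0.45 (SE; adjusted p = 0.313, limma) against all controls and 0.16 against control 2. Without control 2 it was 1.63, with an adjusted p of 0.0136 (limma). That setting leaves the groups in different runs, so run and deletion cannot be told apart, and 16.4% of all genes were called higher in it.

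*Tfg* encodes a protein that organises COPII carriers between the ER and the next compartment. It was at 6.49, 7.04 and 7.50 in controls 2, 3 and 4 and at 6.85, 7.33 and 7.64 in Hsp47-deleted 1, 2 and 3. The groups overlapped, with control 2 the lowest of the 6 libraries (0.26 ± 0.37 SE, adjusted p = 0.745, limma). *Klhl12* encodes the adaptor of the CUL3 ubiquitin ligase that modifies Sec31 and enlarges COPII coats. It was at 1.96, 2.78 and 3.24 in controls 2, 3 and 4 and at 2.53, 2.52 and 2.84 in Hsp47-deleted 1, 2 and 3, which also overlapped (-0.03 ± 0.40 SE, adjusted p = 0.975). Control 2 was again the lowest, and the difference against it alone was 0.67.

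**Figure D3:**
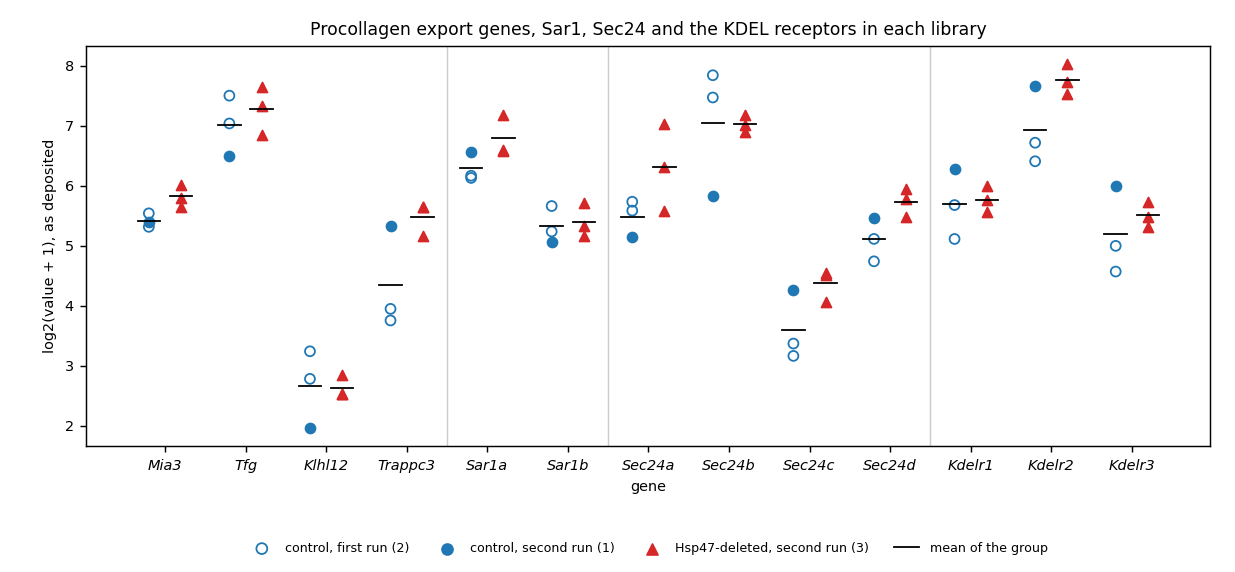
Deposited log2(value + 1) of 13 members in each library, as open circles for first-run controls, filled circles for the second-run control and triangles for the 3 Hsp47-deleted libraries, with bars at the group means. The levels of different genes are not to be compared, since the linear unit is not stated. The groups do not overlap in *Mia3*, *Sar1a* and *Sec24d*, and control 2 is the lowest library in *Tfg*, *Klhl12*, *Sar1b*, *Sec24a* and *Sec24b*, and the highest in *Kdelr1* and *Kdelr3*.

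Of the 7 roles, the COPII coat had the highest share of members in which all 3 Hsp47-deleted libraries lay above the second-run control, 10 of 11 (90.9%; all genes 46.7%), a share that was not tested. No COPII member passed the adjusted threshold (adjusted p from 0.299), 2 were higher at an unadjusted p under 0.05 (18.2%; all genes 14.5%), and in 5 every Hsp47-deleted library lay above every control (45.5%; all genes 18.3%). The median fold change was 0.58 against all controls and 0.34 against control 2 (all genes 0.35 and 0.29). With each library centred on its median gene it was 0.16 (all genes -0.06). The libraries were uneven. The median COPII member lay 0.20, 0.50 and 0.89 above the control mean in Hsp47-deleted 1, 2 and 3 (all genes 0.32, 0.40 and 0.33). It was thus below the median gene in Hsp47-deleted 1 and furthest above it in Hsp47-deleted 3.

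The outer cage is built of Sec13 and Sec31. *Sec31a* was at 5.97, 5.48 and 5.37 in controls 2, 3 and 4 and at 6.33, 6.31 and 6.59 in Hsp47-deleted 1, 2 and 3. The groups did not overlap, and the fold change was 0.80 ± 0.29 (SE; unadjusted p = 0.0258, adjusted p = 0.299, limma). *Sec13* was at 5.49, 4.30 and 4.83 in controls 2, 3 and 4 and at 5.51, 5.64 and 6.25 in Hsp47-deleted 1, 2 and 3. Its groups did not overlap either, but control 2 fell short of the lowest Hsp47-deleted library by a small margin (0.93 ± 0.39 SE, adjusted p = 0.323). Both retained a positive difference against control 2 alone, 0.44 for *Sec31a* and 0.32 for *Sec13*.

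Sar1 is the GTPase that starts coat assembly. *Sar1a* was at 6.57, 6.17 and 6.13 in controls 2, 3 and 4 and at 6.58, 6.60 and 7.18 in Hsp47-deleted 1, 2 and 3 (0.50 ± 0.31 SE, adjusted p = 0.442, limma). Control 2 nearly reached Hsp47-deleted 1 and 2, and Hsp47-deleted 3 stood above them. *Sar1b*, the isoform known for chylomicron export, was at 5.06, 5.66 and 5.24 in controls 2, 3 and 4 and at 5.34, 5.16 and 5.72 in Hsp47-deleted 1, 2 and 3. Its groups were interleaved (0.08 ± 0.31 SE, adjusted p = 0.912).

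The 4 Sec24 proteins are the cargo-binding subunits of the inner coat, and their genes differed most from one another in how the controls were spread. *Sec24a* was at 5.14, 5.59 and 5.73 in controls 2, 3 and 4 and at 5.58, 6.32 and 7.02 in Hsp47-deleted 1, 2 and 3. The Hsp47-deleted libraries were spread more widely than the controls, with replicate 3 the highest (0.82 ± 0.41 SE, adjusted p = 0.375, limma). *Sec24b* was at 5.83, 7.47 and 7.84 in controls 2, 3 and 4 and at 6.89, 7.01 and 7.18 in Hsp47-deleted 1, 2 and 3. The Hsp47-deleted libraries lay together in the gap between control 2 and the first-run controls, so the fold change was -0.02 ± 0.51 (SE; adjusted p = 0.989) against all controls, 1.20 against control 2 and -0.63 without it. The sign of the *Sec24b* difference depended on which controls were used.

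*Sec24c* was at 4.27, 3.17 and 3.37 in controls 2, 3 and 4 and at 4.51, 4.54 and 4.07 in Hsp47-deleted 1, 2 and 3. Control 2 lay within the Hsp47-deleted range (0.77 ± 0.37 SE, adjusted p = 0.361, limma; 0.10 against control 2). *Sec24d*, whose loss impairs procollagen secretion and skeletal development in fish, was at 5.47, 5.11 and 4.74 in controls 2, 3 and 4 and at 5.48, 5.94 and 5.79 in Hsp47-deleted 1, 2 and 3. The groups did not overlap, though control 2 and Hsp47-deleted 1 nearly touched (0.63 ± 0.31 SE, adjusted p = 0.366). Of the 3 other coat members, *Sec23a*, whose product is the GTPase activator of Sar1 and is required for collagen secretion in skeletal tissue, had a fold change of 0.58 ± 0.32 (SE; adjusted p = 0.403) without overlap, and 0.64 against control 2. Its paralog *Sec23b* (0.32) and the exit site scaffold *Sec16a* (0.50) overlapped between the groups, with adjusted p-values of 0.625 and 0.454.

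In the translocon, which carries the growing chain into the ER, the members pointed in both directions, with 8 positive and 2 negative fold changes. The channel subunit *Sec61a1* was at 6.30, 5.85 and 5.94 in controls 2, 3 and 4 and at 6.56, 6.73 and 7.19 in Hsp47-deleted 1, 2 and 3. The groups did not overlap (0.80 ± 0.30 SE, unadjusted p = 0.031, adjusted p = 0.306, limma), and the difference against control 2 was 0.53. *Ssr2*, a subunit of the translocon-associated TRAP complex, was at 5.95, 4.67 and 4.68 in controls 2, 3 and 4 and at 6.26, 6.003 and 6.47 in Hsp47-deleted 1, 2 and 3. The groups did not overlap, yet control 2 was nearly as high as the Hsp47-deleted libraries (1.14 ± 0.41 SE, adjusted p = 0.296; 0.29 against control 2).

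The small channel subunits *Sec61b* and *Sec61g* behaved unlike each other, and both share near-identical sequence with a predicted gene (*Gm10320* and *Gm10177*), so their values are uncertain. *Sec61b* was at 6.42, 3.93 and 3.79 in controls 2, 3 and 4 and at 6.45, 6.19 and 6.78 in Hsp47-deleted 1, 2 and 3. It had the largest fold change of any member (1.76 ± 0.67 SE, adjusted p = 0.306, limma), but control 2 lay among the Hsp47-deleted libraries and the difference against it was 0.06. *Sec61g* was at 4.70, 4.85 and 5.69 in controls 2, 3 and 4 and at 5.82, 5.89 and 6.03 in Hsp47-deleted 1, 2 and 3. Its groups did not overlap (0.83 ± 0.34 SE, adjusted p = 0.317), control 2 was the lowest library, and the difference against it was 1.21, the largest of any member. These 2 genes were chosen for full values after their values were seen.

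Of the other 6 translocon members, *Ssr1* (0.63) and *Sec62* (0.43) did not overlap between the groups, and *Sec63* (0.08), *Ssr4* (0.88), *Ssr3* (-0.41) and the second channel gene *Sec61a2* (-0.31) did, with adjusted p-values from 0.339 to 0.931. *Ssr4* resembled *Sec61b*, with control 2 at 6.05 above controls 3 and 4 (4.31 and 4.05) and above every Hsp47-deleted library (5.56 to 5.82).

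All 8 members of the signal peptidase and oligosaccharyltransferase had positive fold changes (0.17 to 0.98; all genes 74.5% positive), but only 5 were positive against control 2, which lay above both first-run controls in 7 of the 8 (87.5%; all genes 46.4%). *Spcs1*, a small accessory subunit of the signal peptidase, was at 1.65, 1.26 and 1.79 in controls 2, 3 and 4 and at 2.37, 2.70 and 2.45 in Hsp47-deleted 1, 2 and 3. It had the smallest p of any member and no overlap (0.94 ± 0.32 SE, unadjusted p = 0.0192, adjusted p = 0.286, limma), at a low level. *Ddost*, an oligosaccharyltransferase subunit, was at 4.98, 4.09 and 4.13 in controls 2, 3 and 4 and at 5.68, 5.47 and 4.99 in Hsp47-deleted 1, 2 and 3. Its lowest Hsp47-deleted library barely exceeded control 2 (0.98 ± 0.36 SE, adjusted p = 0.303). Among the others, the ribophorin gene *Rpn2* (0.38) did not overlap between the groups, and *Rpn1* (0.24), *Spcs2* (0.54), *Spcs3* (0.17) and the catalytic subunits *Sec11a* (0.28) and *Sec11c* (0.52) did, with adjusted p-values from 0.437 to 0.777 over the 6. An exon of *Sec11a* overlaps *Nmb* on the same strand, which leaves its value uncertain.

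Cargo receptors sort soluble and lipid-anchored proteins into COPII carriers. *Tmed2*, a p24 protein, was at 6.01, 4.80 and 5.06 in controls 2, 3 and 4 and at 5.95, 6.19 and 6.54 in Hsp47-deleted 1, 2 and 3. Control 2 lay above Hsp47-deleted 1 (0.94 ± 0.38 SE, unadjusted p = 0.0418, adjusted p = 0.319, limma; 0.22 against control 2). *Mcfd2*, which with *Lman1* forms the receptor for coagulation factors, was at 5.00, 5.28 and 4.71 in controls 2, 3 and 4 and at 5.23, 5.31 and 5.81 in Hsp47-deleted 1, 2 and 3. The groups overlapped (0.45 ± 0.31 SE, adjusted p = 0.483). They also did in *Lman1* (0.37, adjusted p = 0.538) and *Tmed10* (0.49, adjusted p = 0.485).

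Against all 3 controls the COPI coat had the smallest median fold change of the 7 roles, 0.12 (all genes 0.35). Against control 2 alone its median was 0.28 (all genes 0.29). That was above the signal peptidase and oligosaccharyltransferase (0.05), the cargo receptors (0.18) and the KDEL receptors (-0.49), and below the other roles. *Copg1*, the gamma subunit, was the exception at 5.47, 4.86 and 5.05 in controls 2, 3 and 4 and 5.78, 5.80 and 6.001 in Hsp47-deleted 1, 2 and 3. Its groups did not overlap (0.73 ± 0.29 SE, unadjusted p = 0.0353, adjusted p = 0.313, limma). *Copa*, the alpha subunit, was at 7.20, 7.88 and 7.98 in controls 2, 3 and 4 and at 7.55, 7.92 and 8.30 in Hsp47-deleted 1, 2 and 3. The groups overlapped, with control 2 the lowest (0.23 ± 0.35 SE, adjusted p = 0.762). *Copb1*, *Copb2* and *Arcn1*, the beta, beta-prime and delta subunits, had fold changes of 0.02, 0.12 and 0.07 and adjusted p-values from 0.864 to 0.979.

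The KDEL receptors bind chaperones that leave the ER and return them in COPI vesicles. *Kdelr2* was at 7.66, 6.41 and 6.72 in controls 2, 3 and 4 and at 7.53, 7.73 and 8.03 in Hsp47-deleted 1, 2 and 3. Control 2 lay within the Hsp47-deleted range and controls 3 and 4 below it (0.84 ± 0.39 SE, adjusted p = 0.344, limma; 0.10 against control 2). *Kdelr1* was at 6.28, 5.68 and 5.11 in controls 2, 3 and 4 and at 5.99, 5.76 and 5.56 in Hsp47-deleted 1, 2 and 3. *Kdelr3*, with the unfolded protein response element printed above, was at 6.002, 5.00 and 4.57 in controls 2, 3 and 4 and at 5.73, 5.49 and 5.32 in Hsp47-deleted 1, 2 and 3. In both, control 2 was the highest of the 6 libraries and control 4 the lowest, so that the fold change was 0.08 ± 0.36 (SE; adjusted p = 0.928) for *Kdelr1* and 0.32 ± 0.41 (SE; adjusted p = 0.716) for *Kdelr3*, and -0.51 and -0.49 against control 2.

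The gap between the controls of the 2 runs was wider than the difference between the groups in 26 of the 45 members (57.8%; all genes 67.5%). The gap sets a mean of 2 libraries against a single library, so it carries more noise than the group difference. Control 2 enters both quantities. With a single control in the second run, the run and a trait of control 2 cannot be told apart. The first-run controls minus control 2 ran from -2.56 (*Sec61b*) to 1.82 (*Sec24b*), with a median of -0.24 (all genes -0.11). Control 2 lay above both first-run controls in 25 members (55.6%; all genes 46.4%) and below both in 15 (33.3%; all genes 36.7%). Across the 45 tested members, this gap had a Spearman's rho of 0.52 with the length of the longest coding transcript and of -0.58 with its GC content, and across 12883 protein-coding genes of 0.26 and -0.33. These are descriptions over genes of the same 3 libraries, with no test. *Sec61b* (564 nucleotides), *Ssr4* (800) and *Trappc3* (1336) were lower in the first run, and *Sec24b* (5128) and *Copa* (4622) were higher. Other members went against this order, since the long *Sec24c* (4461 nucleotides) and *Sec31a* (4228) had differences of -1.002 and -0.55, and the short *Sar1b* (1201) and *Tfg* (1945) of 0.39 and 0.78.

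**Figure D4:**
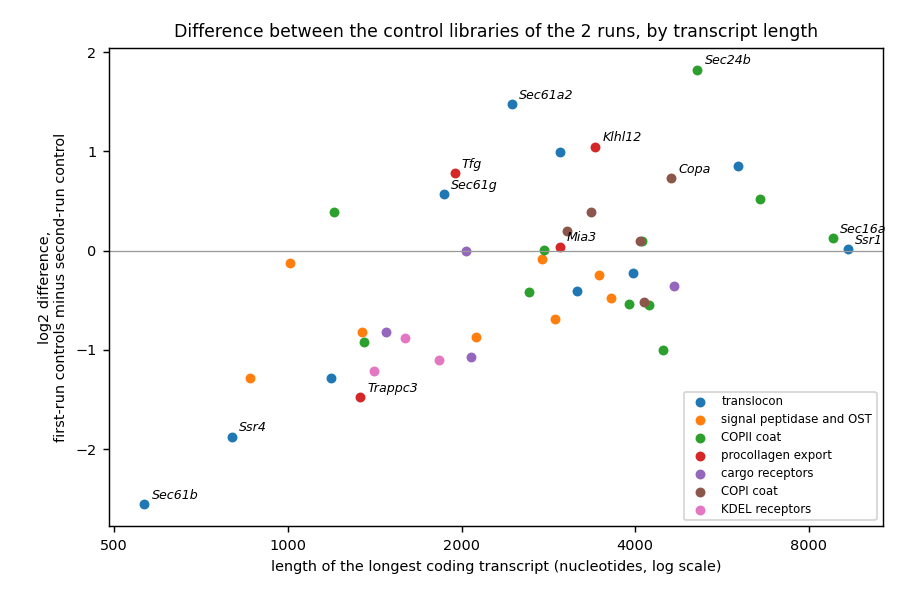
Each point is a tested member, coloured by role. The x axis is the length of its longest coding transcript on a log scale and the y axis the mean log2 value of the 2 first-run controls minus the second-run control. The points rise loosely with length (Spearman's rho 0.52), with *Sec61b* lowest and *Sec24b* highest, and members of like length lie on both sides of 0.

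Leaving control 2 out, which leaves the groups wholly in different runs so that run and deletion cannot be told apart, brought 11 members past an adjusted p of 0.05, all higher (24.4% of the 45, against 16.4% of all genes called higher). They were *Sec61b*, *Ssr2*, *Ssr4*, *Ddost*, *Sec13*, *Sec31a*, *Sec24c*, *Trappc3*, *Tmed2*, *Copg1* and *Kdelr2*, and their differences against control 2 alone lay between -0.37 (*Ssr4*) and 0.44 (*Sec31a*). With the run as a covariate, 0 members passed the adjusted threshold (all genes 0.331%), and *Sec24b* and *Sec61g* had an unadjusted p under 0.05 (0.00751 and 0.0197), both higher, against 6.73% of all genes in either direction.

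Genes of the same pathway outside the 46 were compared in the same way, from a list of 80 of which 79 had a row and 78 were tested. None passed an adjusted p of 0.05 in limma, 15 (19.2%) were higher and 0 lower at an unadjusted p under 0.05 (all genes 14.5% and 0.755%), and their median was 0.48 (all genes 0.35). *Ergic2*, which encodes a cargo receptor that cycles between ER and Golgi, was at 5.22, 5.03 and 4.74 in controls 2, 3 and 4 and at 6.05, 6.28 and 6.72 in Hsp47-deleted 1, 2 and 3. Its groups were well apart, and the fold change of 1.35 ± 0.31 (SE; adjusted p = 0.192) was close to the 1.12 against control 2. The SNARE gene *Ykt6* (1.15 ± 0.32 SE, adjusted p = 0.27) and *Preb*, the exchange factor that loads Sar1 with GTP (0.87 ± 0.28 SE, adjusted p = 0.283), had similar differences against control 2, of 1.09 and 1.10. The SNARE gene *Use1* (1.85 ± 0.58 SE, adjusted p = 0.282) and the Golgi tether gene *Golga2* (1.86 ± 0.59 SE, adjusted p = 0.283) had smaller ones, of 0.39 and 0.58. Of the 5 transcription factor genes listed for the pathway, *Creb3*, *Creb3l1*, *Creb3l2*, *Xbp1* and *Atf6*, *Creb3* and *Creb3l2* were higher at an unadjusted p under 0.05 (all genes 14.5%), with differences against control 2 of 0.05 and 0.84, and the median was 0.54.

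The cargo and the chaperones were set beside the machinery. The 5 fibrillar procollagen genes had fold changes of 0.67 (*Col1a1*), 0.52 (*Col1a2*), 0.14 (*Col3a1*), 0.69 (*Col5a1*) and 0.84 (*Col5a2*), with adjusted p-values from 0.283 to 0.852, limma, and a median of 0.67. *Col3a1* was -0.04 against control 2, and the other 4 were positive. For *Col1a1* and *Col3a1* the paper reports a significant fall in mRNA in Hsp47-deleted EGFP+ cells sorted after TAC. It measured them by RT-PCR normalized to *Gapdh*, a different scale from the deposited values. The fold changes here were positive for both, but the groups overlapped in both and neither passed the adjusted threshold. With the libraries centred on their medians *Col1a1* was 0.26 and *Col3a1* was -0.28, so *Col3a1* had no settled direction. The reason for the difference from the paper was not tested. Among 15 ER chaperone genes the median was 0.65 (all genes 0.35), 0 passed the adjusted threshold and 6 were higher at an unadjusted p under 0.05 (40.0%; all genes 14.5%). With each library centred on its median gene, the medians were 0.26 for the procollagens and 0.23 for the chaperones (all genes -0.06). The chaperones at an unadjusted p under 0.05 then numbered 1 of 15 (all genes 8.21%). *Canx*, which encodes the lectin chaperone calnexin, was at 7.66, 6.82 and 6.95 in controls 2, 3 and 4 and at 9.28, 8.64 and 9.38 in Hsp47-deleted 1, 2 and 3. Every Hsp47-deleted library lay above every control by a wide margin (1.95 ± 0.36 SE, adjusted p = 0.114), and the difference was 1.44 against control 2. Its soluble counterpart *Calr* was 0.86 ± 0.29 higher (SE; adjusted p = 0.283) and 0.59 against control 2.

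Summed over all 46 members, the linear values were 0.303% to 0.328% of each control library and 0.342% to 0.425% of each Hsp47-deleted library, with the highest share in Hsp47-deleted 3. The shares did not overlap, but they rest on totals in which the mitochondrial share differed between the groups as given above. They therefore do not compare the members with nuclear genes alone. After rescaling each library to the sum of its nuclear named genes, 1 member did not overlap between the groups (2.22%; all genes 13.1%). In that setting 18 of the 45 tested members turned from a positive to a negative fold change, and 0 turned the other way. The higher share in the Hsp47-deleted libraries is thus not a rise relative to nuclear genes.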

How the data were processed

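RNA of sorted EGFP+ cells, in 3 control and 3 Hsp47-deleted libraries, was amplified and sequenced by the authors. They deposited 1 table of log2(value + 1), with 1 column per library, whose linear unit is not stated. The submitters' processing notes name kallisto and mm10, and the paper names AltAnalyze. The linear values are not whole numbers, so depth is unknown and no interval that needs it is given. Columns holding the authors' group means and their own comparison were not used.

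The deposited log2 values were fitted with limma 3.58.1 (R 4.3.3; lmFit, eBayes with a mean-variance trend), two-sided, without covariate, on 15109 genes averaging at least 1 linear unit (13878 were left out), with Benjamini-Hochberg adjustment of the p-values. A called gene has an adjusted p under 0.05. A fold change is a difference of log2(value + 1), which understates changes of low genes. Whether each library holds 1 mouse is not stated, so p-values measure only the spread between libraries.

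The 46 members and all lists were chosen with earlier results of these data known. Full values are given for the procollagen export, KDEL receptor, Sar1 and Sec24 genes and for the 2 members of each other role with the smallest p; of other pathway genes the 5 with the smallest p, of chaperones 2, and all 5 procollagens are named. Lengths, GC content and overlaps came from GENCODE M21, in which 16 members overlap an exon of a gene on the opposite strand. Near-identical copies were found with minimap2 2.31-r1302 (95% identity over 80% of the length). The fit was tested on simulated data in which 200 genes were changed. At an adjusted p under 0.05 it recovered 0 of them at a log2 change of 1. It recovered 20 (10%) at a change of 2 and 149 (74.5%) at 3, with 0, 0 and 9 false calls. The absence of a call therefore does not show that a change of 1 or 2 is absent. Alternatives covered the run, scaling, filter, pseudocount, eBayes settings, replicate block and leaving out each library.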

Additional observations from a re-analysis of the deposited data

How the results depend on the processing

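No member passed the adjusted threshold under any setting run, except without control replicate 2. The 37 genes called became 18 with libraries centred on the median, 17 after quantile normalization, 17 after rescaling to nuclear named genes and 16 with a pseudocount of 0.1. The members' median log2 fold change of 0.49 became 0.072, 0.12 and 0.0033 under the same 3 scalings and 0.29 within the second run or with the run as a covariate. The 11 members at an unadjusted p under 0.05 became 0, 1 and 0 under the scalings and 2 with the covariate. The 15 members without overlap (33.3%; all genes 19.8%) became 4, 2 and 1 under the scalings (all genes 13.8%, 13.8% and 13.1%). Against control 2 alone they were 31 (68.9%; all genes 58.4%), in a comparison of 3 libraries with 1, where non-overlap is easier to reach. The replicate block called 0 genes (10.2% at an unadjusted p under 0.05), with 3 members at an unadjusted p under 0.05. The groups share only replicate numbers 2 and 3, whose libraries' deviations correlated at 0.16 and 0.23, below the 0.38 of control 2 with Hsp47-deleted 1 and the 0.37 of control 4 with Hsp47-deleted 3, so the numbers were not taken to pair the libraries.

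Leaving out each library in turn gave 8 to 2768 called genes, 0 to 11 called members, 0 to 20 members at an unadjusted p under 0.05, a median of 0.41 to 0.56 and 16 to 31 members without overlap. Over the same settings 6.04% to 35.1% of all genes had an unadjusted p under 0.05 and 22.3% to 52.0% did not overlap, which is easier to reach with 1 library fewer. The upper ends of the counts came without control 2, and the median was 0.56 there. Without control 3 no member had an unadjusted p under 0.05, without control 4 there were 2, and without Hsp47-deleted 1, 2 and 3 there were 4, 1 and 3.

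Under centring, quantile normalization and rescaling, 16, 13 and 18 of the 45 members turned from positive to negative. Among the genes given with library values, and the procollagens, the sign turned for *Copa* (-0.18, -0.34, -0.26), *Kdelr1* (-0.33, -0.26, -0.40), *Kdelr3* (-0.094, -0.031, -0.16), *Sar1b* (-0.33, -0.26, -0.40), *Tfg* (-0.15, -0.22, -0.23), *Col3a1* (-0.28, -0.35, -0.36) and *Serpinh1* (-0.34, -0.27, -0.41) under all 3, and under 1 or 2 of them for *Mia3* (-0.0081 centred, -0.075 rescaled), *Mcfd2* (-0.025 rescaled) and *Col1a2* (-0.046 quantile normalized). Within the second run, and with the run as a covariate, 7 members turned negative and 4 positive, and among the same genes the sign turned for *Col3a1* (-0.039), *Kdelr1* (-0.51), *Kdelr3* (-0.49), *Serpinh1* (-0.87), *Klhl12* (0.67) and *Sec24b* (1.20). With the replicate block 3 members turned each way, and among the same genes the sign turned for *Kdelr1* (-0.32), *Kdelr3* (-0.10), *Klhl12* (0.31), *Sec24b* (0.45) and *Serpinh1* (-0.28). Leaving out 1 library in turn gave both signs, among the same genes, for *Col3a1* (-0.0063 to 0.32), *Copa* (-0.010 to 0.42), *Kdelr1* (-0.21 to 0.37), *Klhl12* (-0.38 to 0.26), *Sar1b* (-0.074 to 0.25), *Sec24b* (-0.63 to 0.38) and *Serpinh1* (-0.21 to 0.54). The cause of these turns was not tested. The members' standard errors ran from 0.26 to 0.67 on the log2 scale, which limits what 3 libraries a group can resolve.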
